A study of Mus musculus with 6 samples.

Results

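The cell cycle and proliferation genes examined here are a fixed list of 44 genes of cyclin control, S phase and mitosis, read from the mouse cortex after most cortical neurons have been born. A member was found wherever a non-control probe of the deposited arrays carried its gene symbol, which gave 60 probes. Of the 44 members, 42 had a probe bright enough to be tested, among 32697 tested genes in all. The 2 others, the cyclin gene Ccne2 and the mitotic kinase gene Aurkb, had 1 probe each, which was not well above background on any of the 6 arrays. The samples were S1 (primary somatosensory cortex) from C57BL/6 mice at postnatal day 7, taken as total RNA, with 1 single-colour (Cy3) array per sample. The 3 control samples carried floxed Lhx2 alleles (Lhx2f/f) and no Cre. The 3 samples labelled cKO carried the same floxed alleles together with Nex-Cre, a Cre expressed from the Neurod6 (Nex) gene in young excitatory neurons of the cortex. The design asks what the loss of Lhx2, a LIM homeodomain transcription factor, in these neurons does to gene expression in S1. Glia, vessels, interneurons and most dividing cells are not where this Cre is known to act. The labels do not say that the samples came from separate animals, so a p-value here measures only the spread between these samples.

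A dividing cell passes from G1 into S phase when D-type and E-type cyclins with their kinases release E2F factors from the RB family, and the E2F factors then switch on the genes of DNA replication. A later wave of genes, expressed in G2 and mitosis under the MuvB complex, B-MYB and FOXM1, builds the spindle, the kinetochore and the checkpoint. In the cortex at this age the dividing cells are known to be mainly glial precursors, glia, microglia and endothelial cells, with neuronal progenitors next to the lateral ventricle. In bulk tissue, fewer cycling cells and less RNA per cycling cell cannot be told apart.

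Values are log2 signals relative to the 75th percentile of each array, so a value of 0 lies at that percentile, and a value is comparable between arrays for a given probe but not between probes. The targeted gene goes against its label. Lhx2 read 3.62, 3.63 and 3.55 on control arrays 1, 2 and 3 and 4.55, 4.68 and 4.89 on arrays 1, 2 and 3 labelled cKO, which is a log2 difference of 1.1 (SE 0.11, limma adjusted p = 0.0669). Where the deletion lies relative to this probe was not stated in the labels. Directions below therefore rest on the labels, and the group is called the arrays labelled cKO. Probes for the cortical neuron genes Tbr1 and Emx1 passed the background filter. All 6 arrays lay on 1 slide, between 86.7% and 91.1% of their non-control spots were well above background, and no spot was saturated. Y-linked transcripts were well above background on control arrays 1 and 3 and on no other array.

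One control array stood apart for these genes. Control array 3 read the highest of all 6 arrays for 37 of the 42 tested members, whereas it was the highest for 23.9% of all tested genes. It lay above both other controls for 39 of the 42 members, against 48.1% of all genes. The median excess of control array 3 over the mean of the other 2 controls was 0.52 on the log2 scale over the members and 0.059 over all genes. The size of the difference between controls 1 and 2 had a median of 0.067 over the members, with a largest value of 0.30, and a median of 0.11 over all genes. Relative to the control mean, the members' median was -0.16 on control array 1, -0.20 on control array 2 and 0.35 on control array 3. Control arrays 1 and 3 carried Y-linked signal. No array labelled cKO did, so a part of that signal in the group differences cannot be told apart from the group. At the other end, the array labelled cKO 1 was the lowest of the 6 for 32 of the 42 members, against 16.3% of all genes. The spread among the controls was therefore wide. The members' median SD was 0.31 over the 3 controls and 0.12 over the 3 arrays labelled cKO, and the control SD was the larger for 35 of the 42 members, against 47.5% of all genes. Differences of the members are given below with and without control array 3.

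**Figure D1:**
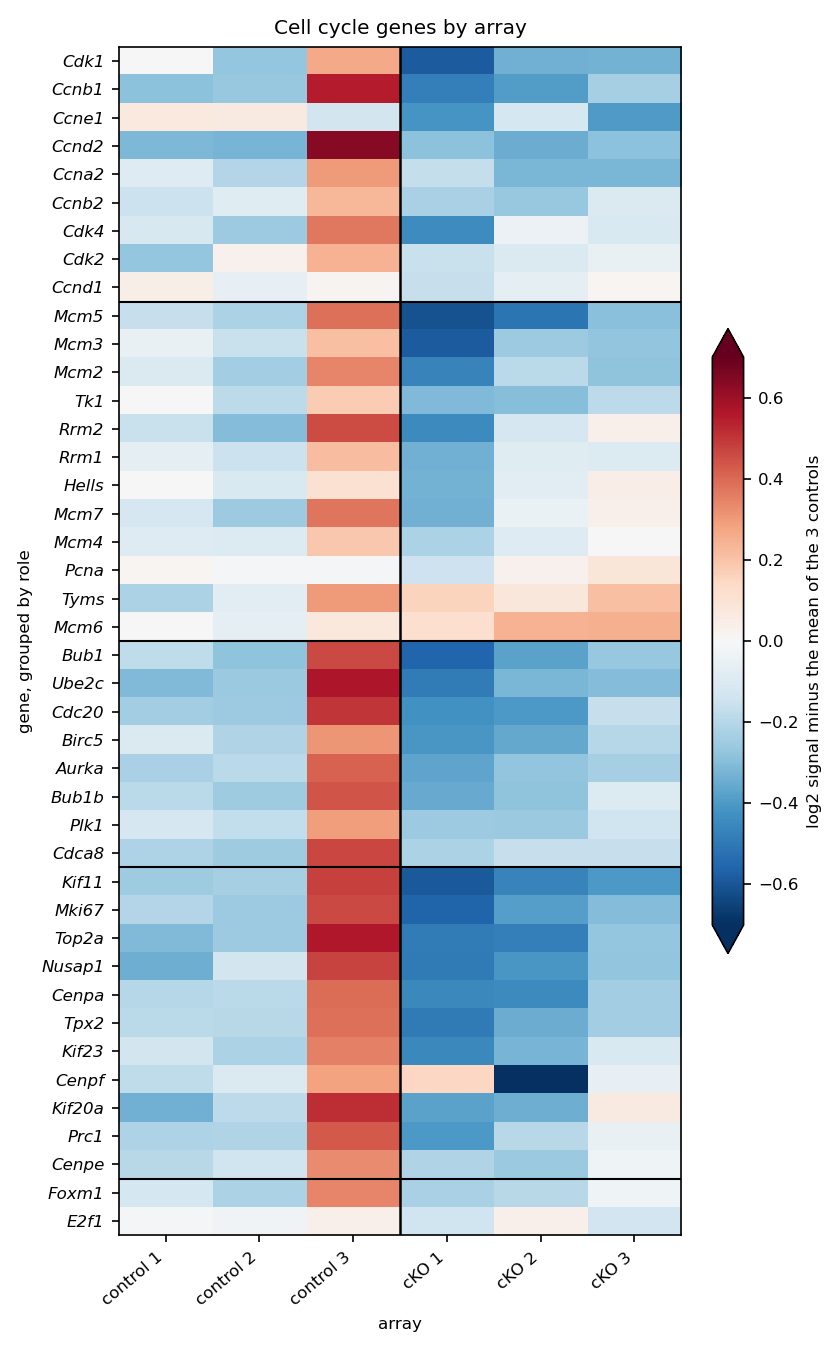
Each row is 1 of the 42 tested members, grouped by role, and each column is 1 array; the colour gives the log2 signal minus the mean of the 3 control arrays. The column of control array 3 is red for 40 members, whereas the other 5 arrays lie mostly below the control mean.

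With all 6 arrays, 40 of the 42 members read lower on average in the arrays labelled cKO, but none passed the test. The members' median log2 difference was -0.27, with a range from -0.49 for Kif11 to 0.20 for Mcm6, while the median over all tested genes was 0.019. A difference below 0 was seen for 44.3% of all genes. No member had a limma adjusted p under 0.05 over the 32697 genes, and the smallest was 0.583, for Cdk1. The same test called 3 of all genes (0.00918%). At an unadjusted p under 0.05, 5 members were lower and 0 were higher, against 4.37% and 3.12% of all genes. Every array labelled cKO read below every control array for 9 members (Cdk1, Mcm3, Mcm5, Kif11, Tk1, Cenpa, Mki67, Tpx2 and Aurka), against 6.19% of all genes. Only Mcm6 read above every control on all 3 arrays labelled cKO, against 6.98% of all genes, and it overlapped the controls in each alternative that used quantile normalization, median centring or the authors' matrix.

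Without control array 3 the members' differences moved toward 0. Their median became -0.08, with 33 members below 0 and 9 above, while 40.8% of all genes lay below 0 and the median of all genes was 0.035. The smallest adjusted p of a member was 0.463, for Ccne1, and 0.0122% of all genes were called. Over all the ways of processing that were tried, the smallest adjusted p of any member lay between 0.169 and 1.0. Both groups were still apart for 10 members that were lower in every array labelled cKO, namely the 9 above and Ccne1, against 12.2% of all genes. Mcm6 and Tyms were higher in every array labelled cKO than in both remaining controls, against 15.4% of all genes. Slide rows 1 and 2 each held 1 control array and 1 array labelled cKO, and neither held control array 3 or the array labelled cKO 1. In both rows the control lay in slide column 1 and the array labelled cKO in column 2. Column and group therefore cannot be told apart within a row. The control of row 1 carried Y-linked signal, and the control of row 2 did not. Within row 1 the members' median difference was -0.094, with 31 of 42 below 0 against 45.2% of all genes. Within row 2 it was 0.034, with 18 of 42 below 0 against 47.3% of all genes. In row 2 the 9 members that did not overlap ran from -0.17 for Kif11 to -0.0019 for Tk1, with -0.06 for Cdk1 and -0.052 for Mki67. Top2a had -0.02 there, Birc5 0.012 and Bub1 0.016.

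**Figure D2:**
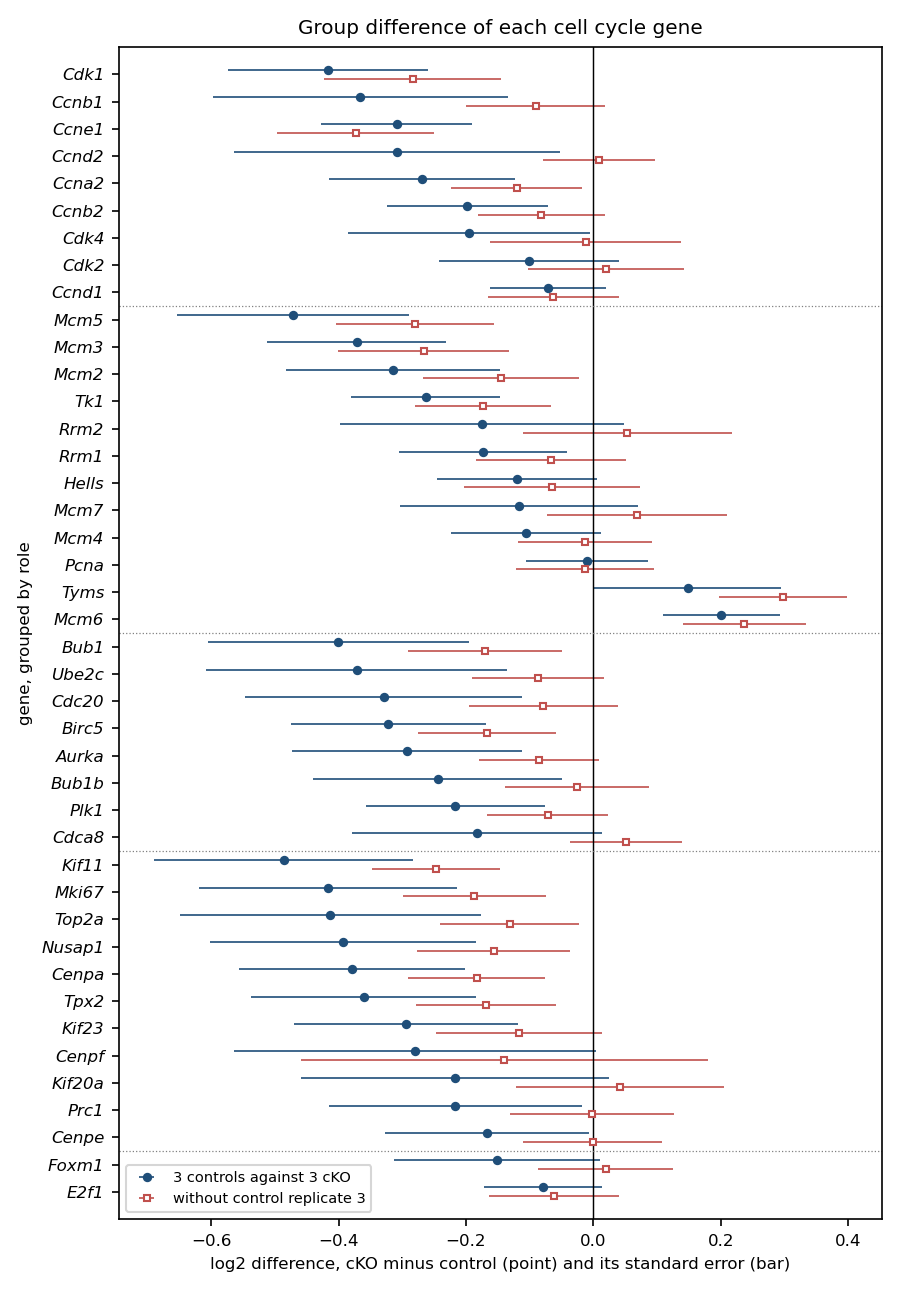
Points are the log2 difference of each member, arrays labelled cKO minus control, and bars are its standard error; filled circles use all 6 arrays and open squares leave out control array 3. Most open squares lie nearer to 0 than the circles, with a median of -0.08 in place of -0.27, and the squares of Ccne1, Mcm6 and Tyms are among those that do not.

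Among the cyclins and their kinases, 9 genes were tested and all 9 differences were below 0, with a median of -0.27 that became -0.082 without control array 3. Cdk1, the kinase that drives entry into mitosis, read -1.47, -1.75 and -1.21 on the controls and -2.06, -1.81 and -1.81 on the arrays labelled cKO, in the order of the replicate numbers. The groups did not overlap, with a gap of less than 0.1 between control 2 and its nearest array labelled cKO. The log2 difference was -0.42 (SE 0.16, adjusted p = 0.583) and -0.28 without control array 3. A second tested probe of Cdk1 gave a difference of -0.03, so its probes gave differences of unequal size. Ccne1, the cyclin that with Cdk2 starts S phase, was the only member with control array 3 as the lowest control. It read 1.49, 1.49 and 1.30 on the controls and 1.01, 1.30 and 1.03 on the arrays labelled cKO. Control 3 and the array labelled cKO 2 nearly coincided and the other arrays were apart. Its difference was -0.31 (SE 0.12, adjusted p = 0.595), -0.37 without control array 3, -0.19 within slide row 1 and -0.46 within row 2.

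Ccnd2, a D-type cyclin of neural progenitors, showed the largest excess of control array 3. It read 2.0, 1.99 and 2.95 on the controls and 2.02, 1.96 and 2.02 on the arrays labelled cKO. Control 3 alone was high, and the other 5 arrays lay within 0.1 of each other. The difference of -0.31 (SE 0.26, adjusted p = 0.952) became 0.0092 without that array. Ccnd1, the other D-type cyclin measured, read 1.5, 1.40 and 1.48 on the controls and 1.30, 1.40 and 1.47 on the arrays labelled cKO. The groups overlapped, with a difference of -0.071 (SE 0.092, adjusted p = 0.986) and -0.063 without control array 3, which was not high. The mitotic cyclins Ccnb1 and Ccnb2 had differences of -0.37 and -0.20, which were -0.091 and -0.082 without control array 3. For the other members, differences are given over all 6 arrays and then without control array 3. Ccna2, the cyclin of S phase and G2, had -0.27 and then -0.12. The G1 kinase genes Cdk4 and Cdk2 had -0.20 and -0.10, and then -0.012 and 0.02.

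**Figure D3:**
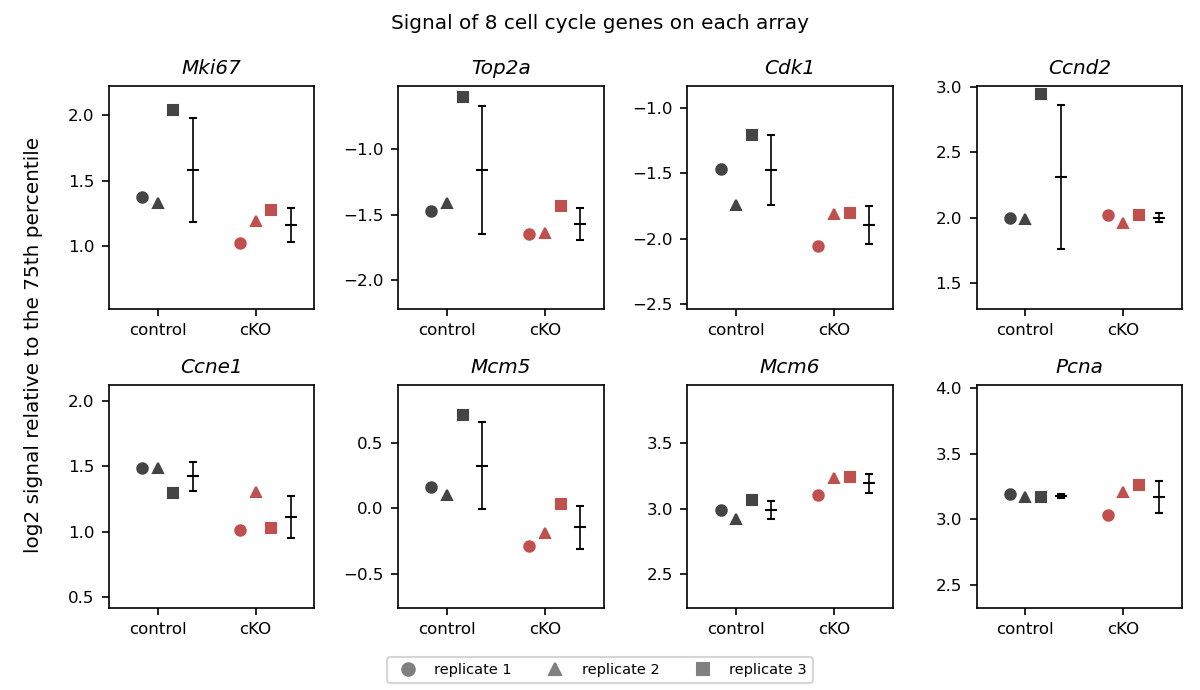
Each panel shows 1 gene as the log2 signal relative to the 75th percentile of the array (each vertical axis has its own range); points are single arrays with the shape giving the replicate number, and the bar is the mean with its SD over 3 arrays. Control array 3 (square) is far above the other controls for Mki67, Top2a, Ccnd2 and Mcm5, but not for Ccne1 or Pcna.

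The genes of DNA replication and nucleotide synthesis had differences of both signs. Of 12 tested, 10 differences were below 0 and 2 above, with a median of -0.15 that became -0.039 without control array 3. The MCM genes encode the 6 subunits of the replicative helicase, and their differences ran from -0.47 to 0.20. Mcm5 read 0.17, 0.10 and 0.71 on the controls and -0.29, -0.19 and 0.032 on the arrays labelled cKO, and the groups did not overlap. Its difference was -0.47 (SE 0.18, adjusted p = 0.606) and -0.28 without control array 3. Mcm3 read 0.59, 0.49 and 0.86 on the controls and 0.062, 0.39 and 0.37 on the arrays labelled cKO, again without overlap. The array labelled cKO 1 was the lowest of the 6 for Mcm3, whose difference was -0.37 (SE 0.14, adjusted p = 0.593) and -0.27 without control array 3.

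Mcm2 read -0.55, -0.69 and -0.11 on the controls and -0.92, -0.64 and -0.73 on the arrays labelled cKO. These values overlapped, with a difference of -0.31 (SE 0.17, adjusted p = 0.805) and -0.14 without control array 3. Mcm6 was the only subunit with a difference above 0. It read 2.99, 2.92 and 3.07 on the controls and 3.11, 3.23 and 3.24 on the arrays labelled cKO, so that all 3 of the latter were higher by a narrow margin. The difference was 0.20 (SE 0.092, adjusted p = 0.715), 0.24 without control array 3, 0.24 within slide row 1 and 0.32 within row 2. Mcm4 and Mcm7 had differences of -0.11 and -0.12, which were -0.013 and 0.069 without control array 3.

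Tk1, the thymidine kinase of the nucleotide salvage pathway, read -0.21, -0.40 and -0.035 on the controls and -0.52, -0.51 and -0.40 on the arrays labelled cKO. The arrays labelled cKO lay below the controls, but control 2 and the array labelled cKO 3 nearly coincided, with a difference of -0.0019. The difference between groups was -0.26 (SE 0.12, limma adjusted p = 0.696) and -0.17 without control array 3. Tyms, which makes thymidylate de novo, went the other way, with 0.15 and then 0.30. Pcna, the sliding clamp of the replication fork, read 3.19, 3.17 and 3.17 on the controls and 3.03, 3.2 and 3.26 on the arrays labelled cKO. The controls were nearly equal and lay inside the range of the other group, with a difference of -0.0099 (SE 0.10, adjusted p = 0.999) and -0.014 without control array 3. The ribonucleotide reductase genes Rrm1 and Rrm2 had -0.17 and -0.17, then -0.066 and 0.053. Hells, a chromatin remodeller of dividing cells, had -0.12 and then -0.065. Several differences also rested on the array labelled cKO 1: without it Hells had -0.015, Mcm7 -0.0077, Rrm2 -0.04, Cdk4 -0.072, Mcm4 -0.047, Rrm1 -0.091 and Ccnd1 -0.026, while Pcna had 0.057.

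The mitotic kinases and checkpoint genes were all below 0 in the 8 tested, with a median of -0.31 that became -0.082 without control array 3. Control array 3 exceeded the other controls by 0.44 to 0.85 in these genes, with a median of 0.67. Birc5 (survivin), a subunit of the chromosomal passenger complex, read 1.43, 1.32 and 1.84 on the controls and 1.12, 1.17 and 1.33 on the arrays labelled cKO. Control 2 lay within the range of the other group, and the difference was -0.32 (SE 0.15, adjusted p = 0.742), or -0.17 without control array 3. Bub1, a kinase of the spindle checkpoint, read -2.64, -2.75 and -2.0 on the controls and -3.02, -2.84 and -2.73 on the arrays labelled cKO. Control 2 fell inside the range of the other group, with a difference of -0.40 (SE 0.21, adjusted p = 0.783) and -0.17 without control array 3. Its checkpoint partner Bub1b had -0.24 and then -0.025. Aurora kinase A (Aurka) had -0.29 and then -0.085, and the groups were apart by less than 0.1. The polo-like kinase Plk1 had -0.22 and then -0.072. Cdc20 and Ube2c, which serve the anaphase-promoting complex, had -0.33 and -0.37, then -0.079 and -0.087. Cdca8 (borealin), a partner of Birc5, had -0.18 and then 0.051.

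The genes of mitotic chromosomes, kinetochore and spindle had the lowest median of the role groups, -0.36 over 11 genes, all below 0, and -0.14 without control array 3. Mki67, which encodes the proliferation marker Ki-67, read 1.38, 1.33 and 2.04 on the controls and 1.02, 1.2 and 1.28 on the arrays labelled cKO. All 3 controls were higher, control 3 by far, and the difference of -0.42 (SE 0.20, adjusted p = 0.755) became -0.19 without that array. Its probe lies at chr7:142881591-142881650 of mm9. Top2a, the topoisomerase that untangles sister chromatids, read -1.47, -1.41 and -0.60 on the controls and -1.65, -1.64 and -1.43 on the arrays labelled cKO. Control 1 lay inside the range of the other group. The difference was -0.41 (SE 0.24, adjusted p = 0.833) and -0.13 without control array 3. Kif11, the motor that pushes the spindle poles apart, had the lowest difference of all members. It read -2.41, -2.39 and -1.68 on the controls and -2.75, -2.63 and -2.56 on the arrays labelled cKO, without overlap. The difference of -0.49, a 1.40-fold lower signal (SE 0.20 on the log2 scale, adjusted p = 0.666), was -0.25 without control array 3, -0.22 within slide row 1 and -0.17 within row 2.

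Cenpa, the histone H3 variant that marks the centromere, read -0.80, -0.79 and -0.21 on the controls and -1.05, -1.05 and -0.84 on the arrays labelled cKO. Both groups were apart, with a difference of -0.38 (SE 0.18, adjusted p = 0.734) and -0.18 without control array 3. Tpx2, which activates Aurora kinase A on the spindle, read -0.85, -0.85 and -0.27 on the controls and -1.15, -1.01 and -0.90 on the arrays labelled cKO. These too were apart, by a margin under 0.1, with -0.36 (SE 0.18, adjusted p = 0.760) and -0.17 without control array 3. Nusap1, a microtubule-binding protein of the spindle, read -1.57, -1.36 and -0.76 on the controls and -1.73, -1.64 and -1.5 on the arrays labelled cKO. Control 1 lay within the other group, and the difference was -0.39 (SE 0.21, adjusted p = 0.804), or -0.16 without control array 3. The kinesin genes Kif23 and Kif20a, needed for cytokinesis, had -0.29 and -0.22, then -0.12 and 0.042. Prc1, which bundles the midzone microtubules, had -0.22 and then -0.0023. The kinetochore genes Cenpe and Cenpf had -0.17 and -0.28, then -0.0011 and -0.14. Cenpf was not well above background on the array labelled cKO 2, and without that array its difference was 0.042. Without the array labelled cKO 1, Prc1 had -0.12 and Kif20a -0.14. Of the transcription factors, E2f1, which acts at the entry into S phase, had -0.079 and then -0.061, and -0.048 without the array labelled cKO 1. Foxm1, which acts in G2, had -0.15 and then 0.019.

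The excess of control array 3 was larger among the later-acting genes. Its median over the 24 tested members assigned to G2 and mitosis was 0.63, and over the 18 assigned to G1 and S phase it was 0.32; these are descriptions of 1 array. The median difference between groups was -0.31 and -0.15 in these sets, and -0.10 and -0.037 without control array 3. RefSeq promoters (GRCm38.p6, from 250 bases before to 50 after the start site) were found for 35 of the 44 members, with 37 promoters in all. The cell cycle genes homology region (CHR), the element that the MuvB complex is known to bind, was searched as TTTGAA, with the form TTCGAA also counted. The CCAAT box was searched by its 5 letters. For the E2F core the form TTCCCGC was searched, then the form TTGGCGC, likewise the form TTCGCGC, and lastly the form TTGCCGC. Both strands were read for all 3 motifs. A CHR match was present in 17 of the 21 promoters of the G2 and mitosis genes (81.0%) and in 2 of the 16 of the G1 and S genes (12.5%), against 19.2% of all 32851 promoters. The CCAAT box was present in 90.5%, 62.5% and 37.4% of these sets. The E2F core was present in 14.3%, 56.2% and 9.57%, and in 2 member promoters an E2F match overlapped a CCAAT match. A match is a description of letters and not a binding site.

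Stretches of 150 bases, from 130 before to 20 after the start site, are shown for chosen genes. These are 6 genes of G2 and mitosis and 3 genes of S phase entry. The 6 read highest on control array 3, as did Mcm5, whereas Mcm6 and Ccne1 had other patterns. As a set the 6 are not those with the largest excess of control array 3 over the other controls, but the largest is among them. Their excess ran from 0.35 for Ccnb2, the smallest of the 24 tested G2 and mitosis members, to 0.85 for Ube2c, the largest. Top2a had 0.84 and Kif11 0.72. The stretches are written 5′ to 3′ on the gene's strand, with every match to the 3 motifs in capitals. Neighbouring or overlapping matches run together.
Mki67 (chr7:135716360-135716509, minus strand): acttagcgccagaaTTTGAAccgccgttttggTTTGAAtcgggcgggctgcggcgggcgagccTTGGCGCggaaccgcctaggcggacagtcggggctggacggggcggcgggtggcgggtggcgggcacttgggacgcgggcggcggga
Top2a (chr11:99024170-99024319, minus strand): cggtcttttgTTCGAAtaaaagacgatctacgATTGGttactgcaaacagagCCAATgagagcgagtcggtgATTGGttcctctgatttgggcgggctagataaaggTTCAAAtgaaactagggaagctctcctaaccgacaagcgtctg
Cdk1 (chr10:69352893-69353042, minus strand): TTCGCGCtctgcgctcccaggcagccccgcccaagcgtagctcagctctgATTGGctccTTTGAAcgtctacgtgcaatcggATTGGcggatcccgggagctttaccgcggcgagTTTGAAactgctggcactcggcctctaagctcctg
Ccnb2 (chr9:70421535-70421684, minus strand): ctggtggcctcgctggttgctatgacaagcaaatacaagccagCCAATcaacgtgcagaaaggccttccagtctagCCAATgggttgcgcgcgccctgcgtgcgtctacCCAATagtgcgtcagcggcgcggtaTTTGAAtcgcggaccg
Ube2c (chr2:164769799-164769948, plus strand): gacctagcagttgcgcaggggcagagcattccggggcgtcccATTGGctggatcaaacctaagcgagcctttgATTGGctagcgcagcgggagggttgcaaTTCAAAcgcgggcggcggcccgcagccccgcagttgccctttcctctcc
Kif11 (chr19:37376252-37376401, plus strand): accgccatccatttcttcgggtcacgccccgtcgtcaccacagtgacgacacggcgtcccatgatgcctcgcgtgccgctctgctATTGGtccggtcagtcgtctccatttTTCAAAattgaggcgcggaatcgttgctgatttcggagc
Mcm6 (chr1:128359686-128359835, minus strand): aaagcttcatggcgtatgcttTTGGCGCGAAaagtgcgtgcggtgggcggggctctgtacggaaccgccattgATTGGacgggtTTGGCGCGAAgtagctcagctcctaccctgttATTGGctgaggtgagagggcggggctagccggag
Mcm5 (chr8:75109379-75109528, plus strand): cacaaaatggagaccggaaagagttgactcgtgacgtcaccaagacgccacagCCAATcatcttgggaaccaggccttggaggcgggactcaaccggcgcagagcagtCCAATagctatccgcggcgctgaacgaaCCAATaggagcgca
Ccne1 (chr7:38107471-38107620, minus strand): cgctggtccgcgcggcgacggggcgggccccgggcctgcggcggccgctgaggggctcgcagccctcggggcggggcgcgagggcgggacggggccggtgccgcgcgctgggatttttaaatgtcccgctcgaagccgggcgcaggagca
All 6 stretches of the G2 and mitosis genes hold a CHR match, and 5 of them, all but Mki67, also hold a CCAAT box. These 6 do not stand for every gene of that set, in which 17 of 21 promoters held a CHR match. The promoter of Ccnb1, whose excess on control array 3 was 0.83, held none. The Mcm6 stretch holds E2F cores and CCAAT boxes and no CHR match, the Mcm5 stretch holds CCAAT boxes alone, and these letters do not occur in the Ccne1 stretch. Farther from the start site than the stretches shown, the Mcm5 promoter held E2F matches between bases -164 and -143. The Mki67 promoter held CCAAT matches between bases -188 and -137.

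Related genes outside the list were read the same way, from lists chosen with earlier results of these data known. Of 49 further mitosis genes, 42 had a difference below 0, against 44.3% of all genes, and 0 passed limma at an adjusted p of 0.05. At an unadjusted limma p under 0.05, 5 were lower and 0 higher, against 4.37% and 3.12% of all genes. The median of the 49 was -0.21 and became -0.064 without control array 3. Control array 3 was above both other controls for 44 of these 49. Control array 3 was not the highest control for Wee1 or Ndc80, which with Cks2 and Smc4 had the smallest p. Wee1, the kinase that holds Cdk1 inactive, read -1.60, -1.63 and -1.71 on the controls and -2.09, -1.88 and -1.99 on the arrays labelled cKO (difference -0.34, adjusted p = 0.396). Cks2, a CDK-binding subunit, had a difference of -0.35 (adjusted p = 0.440), the condensin gene Smc4 -0.39 (adjusted p = 0.447) and the kinetochore gene Ndc80 -0.48 (adjusted p = 0.469). Without control array 3 these 4 differences were -0.37, -0.33, -0.33 and -0.47. Over the list, 11 of the 49 genes were lower and 1 was higher in every array labelled cKO than in every control, against 6.19% and 6.98% of all genes.

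Among 38 further replication and S-phase genes, 24 were below 0 and 14 above, against 44.3% of all genes below 0, and 0 passed limma. At an unadjusted limma p under 0.05, 1 was lower and 1 higher, against 4.37% and 3.12% of all genes. The median of the 38 was -0.044. It was 0.014 without control array 3, which was above both other controls for 32 of the 38. Slbp, which binds histone mRNA, read higher in the arrays labelled cKO (0.35, adjusted p = 0.355), and by 0.31 without control array 3. The licensing factor gene Cdc6 had -0.55 (adjusted p = 0.652) and its counterpart Gmnn (geminin) -0.25 (adjusted p = 0.774). Cdca7 read 0.39, 0.16 and 1.66 on the controls and -0.40, 0.014 and 0.056 on the arrays labelled cKO, with control 3 far above the rest (-0.85, adjusted p = 0.710). Without control array 3 the differences of Cdc6, Gmnn and Cdca7 were -0.35, -0.16 and -0.38.

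The CDK inhibitors, which restrain the cycle, gave 6 of 7 differences below 0, against 44.3% of all genes, and 0 passed limma. At an unadjusted limma p under 0.05, 1 was lower and 1 higher, against 4.37% and 3.12% of all genes. Cdkn2a, whose gene encodes p16 and p19ARF, read -4.16, -3.72 and -4.54 on the controls and -4.93, -5.06 and -5.57 on the arrays labelled cKO, without overlap (-1.05, SE 0.25, adjusted p = 0.316). These signals were dim, and the lowest was as dim as Cenpf, which read -5.59, -5.51 and -5.13 on the controls. Cdkn1a, which encodes p21, read -0.35, -0.58 and 0.31 on the controls and 0.65, 0.34 and 0.45 on the arrays labelled cKO, all 3 of which were higher (0.69, SE 0.23, adjusted p = 0.507). Cdkn2b had -0.29 and Cdkn2c -0.23, with adjusted p of 0.794 and 0.945. Without control array 3 these 4 genes had -1.25, 0.95, -0.44 and -0.025. The median of the 7 was -0.072, and -0.048 without that array. Of 18 RB, E2F and MuvB regulators, 9 were below 0 and 9 above, with a median of -0.022 and 0 called by limma, also at an unadjusted p under 0.05. Without control array 3 that median turned to 0.031, with 8 genes below 0. The 4 with the smallest p were Tfdp2 (-0.25), E2f8 (-0.21), Lin37 (0.13) and E2f7 (0.20), all with adjusted p of 0.816 or above, and without control array 3 they had -0.24, -0.11, 0.11 and 0.29. The 10 other cyclins and CDKs had a median of -0.014 and 0 called by limma, again also at an unadjusted p under 0.05, with differences of -0.29 for Ccnd3, -0.25 for Ccnf, -0.19 for Ccng2 and -0.17 for Ccng1 and adjusted p of 0.697 or above. Without control array 3 the median was -0.10, with 7 genes below 0, and these 4 had -0.21, -0.21, -0.16 and -0.34.

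Markers of the cell types that the tissue holds are given first for control array 3 and then between the groups. On control array 3, 9 of 11 markers of radial glia and intermediate progenitors and 8 of 8 markers of subventricular neuroblasts lay above both other controls, by medians of 0.51 and 0.66. The list medians relative to the control mean were 0.34 and 0.44 on control array 3 and between -0.22 and -0.14 on the other controls. For the same array the excess over the other controls had medians of -0.0038 for astrocyte, 0.041 for oligodendrocyte precursor, 0.009 for microglial and -0.18 for endothelial and pericyte markers. Sp8, a factor of olfactory bulb interneuron precursors, read -0.30, -0.37 and 0.74 on the controls and -1.18, -0.45 and -0.75 on the arrays labelled cKO. It was far higher on control array 3 than on the other 2 controls, and its difference of -0.82 became -0.46 without that array. The part of these cells in the members' values was not tested.

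Between the groups, glial and microglial markers read lower in the arrays labelled cKO, none with a limma adjusted p under 0.05. At an unadjusted p under 0.05, 11 astrocyte markers, 4 of oligodendrocyte precursors, 5 of maturing oligodendrocytes and 9 of microglia were lower, against 4.37% of all genes; a difference below 0 of any size was seen for 44.3% of all genes. All 12 astrocyte markers were below 0 (median -0.46), led by Gfap (-1.15, adjusted p = 0.0885) and Aqp4 (-0.46, adjusted p = 0.229). All 9 markers of oligodendrocyte precursors were below 0 (median -0.22), led by Gpr17 (-0.66, adjusted p = 0.208) and C1ql1 (-0.41, adjusted p = 0.329). Of 8 markers of maturing oligodendrocytes 6 were below 0 (median -0.64), among them Cnp (-0.98, adjusted p = 0.0707) and Enpp6 (-1.52, adjusted p = 0.0985). All 12 microglial markers were below 0 (median -0.58), such as Cx3cr1 (-0.82, adjusted p = 0.270) and C1qb (-0.58, adjusted p = 0.305). These medians were -0.49, -0.14, -0.66 and -0.67 without control array 3. On single arrays, relative to the control mean, the astrocyte list had medians from -0.0025 to 0.046 on the controls and from -0.53 to -0.37 on the arrays labelled cKO. The microglial list had 0.006 to 0.037 and -0.97 to -0.27, and the list of oligodendrocyte precursors -0.031 to 0.028 and -0.32 to -0.079. Every marker of these 3 lists passed the background filter. The array labelled cKO 3 had the lowest median in each of the 3 lists. Over the members that array had -0.15, and the array labelled cKO 1 had the lowest, -0.37. Within slide rows 1 and 2 the median differences were -0.51 and -0.61 for astrocyte and -0.68 and -1.02 for microglial markers. They were -0.048 and -0.33 for oligodendrocyte precursor markers and -0.094 and 0.034 for the members. Of 12 endothelial and pericyte markers, 9 were below 0 and 3 above, and 1 was lower at an unadjusted limma p under 0.05. Their median was -0.14, and -0.26 without control array 3, with -0.35 for Pdgfrb and -0.22 for Esam over all 6 arrays. Of the markers of radial glia and intermediate progenitors 8 of 11 were below 0, and of the neuroblast markers 5 of 8. Their medians of -0.31 and -0.32 became -0.11 and -0.093 without control array 3. Hopx had a difference of -0.46 and Cd24a one of 0.54.

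Markers of cortical excitatory neurons had a median of 0.18, and 0.15 without control array 3, with -0.91 for Emx1 and 0.45 for Fezf2. All 6 interneuron markers were below 0 (median -0.24, and -0.30 without control array 3), with -0.38 for Gad2 and -0.45 for Npy. All 5 tested markers of red blood cells were above 0 (median 0.29, and 0.13 without control array 3), with 0.25 for Slc4a1 and 0.37 for Hbb-b1, and they varied between arrays of 1 group. Since glia and microglia are among the dividing cells of this tissue, their levels belong beside the members' differences, and their part in these was not tested.

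**Figure D4:**
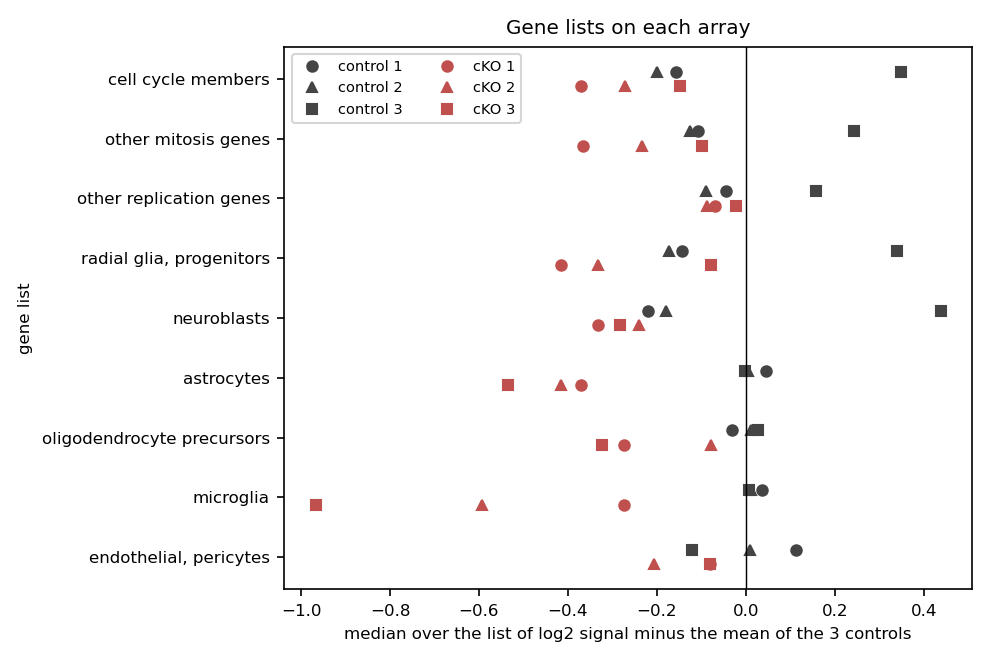
Each point is the median over a gene list of the log2 signal minus the mean of the 3 control arrays, for 1 array (shape gives the replicate number, colour the group). Control array 3 lies apart, between 0.16 and 0.44, for the cell cycle lists and the progenitor and neuroblast lists, and near the other controls for astrocytes, oligodendrocyte precursors and microglia.

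Several probes of the members may also read near-identical copies of the gene. The probes used for Pcna, Mcm7 and Rrm2 were placed by the array design on another chromosome (mm9) than the gene, as were 2 further probes of Ccnb1, and 2 used probes (Cenpa and Kif23) had no position. Values of these genes are uncertain in that respect. Among the 12 genes with several tested probes, all probes of a gene gave a difference of the same sign, and the largest spread between probes of a gene was 0.39, for Cdk1, against a median of 0.039.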

How the data were processed

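Per the file headers, the authors' scanner software (Feature Extraction 10.5.1.1) wrote a processed intensity for each spot after detrending and background subtraction, with no scaling between arrays. From it, log2 values minus each array's 75th percentile were taken, without control and outlier spots and with spots of a probe averaged. A probe needed to be well above background in 3 or more arrays, and each gene took its brightest such probe. The authors' deposited matrix of log2 values has no stated processing; it matched quantile-normalized signals minus each probe's median to within 0.00235 for 95% of values (column medians -0.0064 to 0.00645) and served as an alternative. Gene names were updated through RefSeq (GRCm38.p6). limma 3.58.1 in R 4.3.3 (lmFit, eBayes) tested the 3 arrays labelled cKO against the 3 controls. Its two-sided p-values were adjusted by Benjamini-Hochberg for 32697 genes, with 0.05 as the threshold. With 3 arrays a group, their number limits the precision.

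Members and lists were chosen with earlier results of these data known. All members are named. Full statistics are given for Mki67, Top2a, Pcna, Ccnd1, Ccnd2 and the 14 members with the smallest p, and values for the 4 genes of each related list and the 2 of each marker list with the smallest p; 1 such marker gene is not reported here. The alternatives were other scalings, normexp with an offset of 50, other filters and probe rules, other variance models, the replicate block, slide row, Y-linked signal, and each array left out.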

Additional observations from a re-analysis of the deposited data

How the results depend on the processing

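No member was called in any alternative, and the members' median difference stayed below 0 in all of them except within slide row 2 (0.034). It lay between -0.34 and -0.08 when 1 array was left out, with -0.08 without control array 3, was -0.082 with array weights, -0.099 with Y-linked signal as a covariate and -0.072 without the 2 arrays with Y-linked signal. The labels do not say whether the replicate numbers pair the samples. After the mean of its group was taken off each array, same-numbered arrays had correlations of -0.20, 0.083 and 0.17, and differently numbered ones -0.27 to 0.24. These are not correlations of the signals themselves. With 3 arrays a group these values cannot show or exclude a pairing. With the replicate block the members' median was -0.27 and 0 genes were called. The number of genes called, 3 as reported, was 12 with quantile normalization and 12 with the authors' matrix, 24 with median centring, 89 and 75 with normexp followed by the 75th percentile or by quantiles, 110 with trend and robust variances, 136 with array weights, 13 with a filter on all 6 arrays, 0 with no filter or with slide row as a linear term, and 1 with Y-linked signal as a covariate. Leaving out 1 array gave 0 to 4. The members lower in every array labelled cKO were 9 as reported, against 6.19% of all genes, and 14 with median centring. They were 10 to 23 with 1 array left out. Without the 2 arrays with Y-linked signal they were 15, with control array 2 as the only control. Fewer arrays overlap less often, and without control array 3 the share over all genes was 12.2%. For the other settings that share is not given here, so these counts are not read as stronger results. The difference of Pcna, -0.0099 as reported, was 0.028 with array weights, 0.0064 with slide row and -0.058 to 0.057 with 1 array left out. That of Ccnd2 was 0.015 without the 2 arrays with Y-linked signal and -0.47 to 0.0092 with 1 array left out. Where no other reason is given, the cause was not tested. Array weights put 31 members below 0 and 11 above, and the Y-linked covariate 35 and 7. Dim members such as Cenpf, Ccne2 and Aurkb are limited by signal over background.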
